A study of Mus musculus with 12 samples.

Results

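The genes of the vascular endothelial growth factor (VEGF) and platelet-derived growth factor (PDGF) systems were compared across 4 cell populations sorted from mouse embryos at embryonic stage E7.25. The set holds 10 genes. It comprises the VEGF ligands Vegfa and Vegfc, the VEGF receptors Kdr, Flt1 and Flt4, the VEGF co-receptors Nrp1 and Nrp2, the PDGF ligand Pdgfa and the PDGF receptors Pdgfra and Pdgfrb. These genes were chosen by name, and all 10 were found by their Ensembl identifier among the 38924 genes counted in each library. All 10 also passed the filter on low counts, which kept 14170 genes for testing.

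Every population came from the mouse line Foxa2Cre:Rosa26-YFP, in which Cre recombinase follows Foxa2 and switches on a yellow fluorescent protein (YFP) from the Rosa26 locus, so that YFP stays on in the descendants of Foxa2-expressing cells. All 4 populations therefore carry the Foxa2Cre and Rosa26-YFP alleles, and no population without them was included. YFP-positive cardiac mesoderm is labelled ventricular, and YFP-negative cardiac mesoderm is labelled non-ventricular. Endoderm is labelled EPCAM+, and hematopoietic mesoderm is labelled KDR+. Each population has 3 libraries, made from very small amounts of RNA with an amplifying low-input kit. The number of embryos pooled per library is not given in the sources used here. Nothing states that the replicates came from separate litters, so p-values measure the spread between these libraries. Since KDR protein, the product of Kdr, names the hematopoietic gate, the Kdr level in hematopoietic mesoderm is a property of the sort and not a finding. The surface markers used to sort the cardiac populations are not given in the sources used here. KDR and PDGFRA are common choices for such sorts, so the Kdr and Pdgfra levels in cardiac mesoderm may also have been set by the gate.

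VEGFA binds the receptor tyrosine kinases KDR and FLT1. KDR carries most of the signal in early blood and vessel precursors, whereas FLT1 binds VEGFA tightly, signals weakly and acts largely as a sink for it. VEGFC, once cleaved, acts through FLT4 and KDR, and the neuropilins NRP1 and NRP2 are co-receptors shared with class 3 semaphorins. PDGFA signals through PDGFRA, and at gastrulation the ligand is typically made by epithelial layers while the receptor marks mesoderm, including the precursors of the heart.

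The libraries held 4472800 to 7888631 counts in genes. Levels are given as CPM, a gene's count scaled to the total of its library, and 3 counts corresponded to 0.380 to 0.671 CPM depending on the library. The labels were checked against marker genes. All 9 endoderm markers were at 10 CPM or more in the 3 endoderm libraries, with summed levels of 1307 to 1706 CPM against 60.1 to 224 CPM in the other 9 libraries. Epcam, the gene of the EPCAM+ label, is among these 9 and in these sums, so its part is no check of the label. The endoderm libraries also held visceral endoderm transcripts, whose 6 markers summed to 242 to 700 CPM there and to at most 6.83 CPM elsewhere. The 8 streak and epiblast markers summed to 1105 to 1270 CPM in endoderm and to 271 to 1093 CPM elsewhere. The 6 neural and surface ectoderm markers summed to 382 to 416 CPM in endoderm and to at most 253 CPM elsewhere. Of these 6, 1 was at 10 CPM or more in all 3 endoderm libraries. The part of these lists in the endoderm values below was not tested. The 10 hematopoietic and endothelial markers summed to 1065 to 2148 CPM in hematopoietic mesoderm and to at most 376 CPM elsewhere, although the embryonic globin gene Hba-x was at 0 in every library and Hbb-bh1 reached only 10.5, 7.17 and 0 CPM. The 9 cardiac mesoderm markers summed to 727 to 959 CPM in the cardiac libraries, with Tnnt2 at 0 in all 3 YFP-positive libraries.

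Some libraries stood apart from their groups. Hematopoietic replicate 3 had the lowest hematopoietic and endothelial marker sum of its group (1065 CPM against 1840 and 2148) and the highest cardiac mesoderm marker sum (647 CPM against 203 and 271). Its streak and epiblast marker sum was also the highest, at 965 CPM against 342 and 271. YFP-positive cardiac replicate 2 had a hematopoietic and endothelial marker sum of 376 CPM against 47.8 and 114 in replicates 1 and 3. Hematopoietic replicate 1 had an extraembryonic ectoderm and trophoblast marker sum of 152 CPM against 0.171 and 0.383 in replicates 2 and 3. In endoderm replicate 3 that sum was 82.9 CPM against 25.8 and 12.5 in replicates 1 and 2. The part of these marker differences in the results below was not tested. For some pairs, results of Flt1, Nrp2, Pdgfra and Vegfa are given with and without hematopoietic replicate 3 or YFP-positive cardiac replicate 2. For other results, such as those of Ptprb and Hspg2, the values without these libraries are not given. In bulk libraries such as these, fewer cells of a type and less RNA per cell cannot be told apart.

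Differences were tested with edgeR's quasi-likelihood test on all 12 libraries, and a gene was called when its Benjamini-Hochberg adjusted p, taken over all genes tested, was under 0.05. A test of any difference among the 4 populations called 5 of the 10 genes (Kdr, Flt1, Nrp1, Nrp2 and Pdgfra) beside 6.03% of all genes. All 5 are receptors or co-receptors, and edgeR called none of the 3 ligands. DESeq2 called 7 of the 10 in this test (13.5% of all genes) and limma voom 6 (1097 of 14170 genes). Both included the ligand Vegfc (DESeq2 adjusted p = 0.0142, voom adjusted p = 0.00592). Between the 2 cardiac populations, edgeR called 0 of the 10 genes beside 0% of all genes. At an unadjusted p under 0.05 edgeR counted 1 of the 10, Nrp2, beside 1062 of the 14170 genes. DESeq2 also called 0, beside 0.79% of all genes. Against endoderm, 3 of the 10 were called in YFP-positive cardiac mesoderm (1.54% of all genes) and 4 of the 10 in YFP-negative cardiac mesoderm (1.31%), all of them higher in cardiac mesoderm (higher in the cardiac population: 0.953% and 0.706% of all genes). Kdr and Pdgfra are in both counts, and their cardiac levels may have been set by the gate. The other calls were Nrp1 in the YFP-positive and Nrp1 and Nrp2 in the YFP-negative population. Against hematopoietic mesoderm, 2 were called in the YFP-positive (1.79%), 1 in the YFP-negative (0.593%) cardiac population and 2 in endoderm (5.65%). The 2 in endoderm were Nrp2 and Kdr, and Kdr is the gene of the hematopoietic gate, so its call is no finding. DESeq2 called more in each of these pairs and over all genes. Its counts were 5 of the 10 in YFP-positive cardiac mesoderm against endoderm (6.56% of all genes) and 7 in the YFP-negative population (4.27%). Against hematopoietic mesoderm it called 4 of the 10 in YFP-positive cardiac mesoderm (10.6%), 3 in the YFP-negative population (7.42%) and 4 in endoderm (13.1%). Kdr is among these 4 in endoderm, and it is in the counts of the test of any difference. Kdr and Pdgfra are also in both DESeq2 counts of the cardiac populations against endoderm. Pdgfra is in the DESeq2 counts of both against hematopoietic mesoderm, and in the edgeR count of the YFP-positive population there.

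Many more pairs of groups failed to overlap than were called. Groups are said not to overlap when every library of one lies above every library of the other. Between the cardiac populations this held for 1 of the 10 genes, Nrp2, beside 11.8% of all genes. Against endoderm it held for 7 of the 10 in YFP-positive cardiac mesoderm beside 29.6%, and for 8 of the 10 in YFP-negative cardiac mesoderm beside 28.6%. Against hematopoietic mesoderm it held for 4 in the YFP-positive population beside 13.8%, for 5 in the YFP-negative population beside 18.3%, and for 4 in endoderm beside 33.9%. The count in endoderm against hematopoietic mesoderm lay near that background share. Kdr, the gene of the hematopoietic gate, is in each of the counts against hematopoietic mesoderm. Kdr and Pdgfra, whose cardiac levels may have been set by the gate, are in both cardiac counts against endoderm and in the medians below. The median size of the log2 difference over the 10 genes was 1.57 and 2.12 for the YFP-positive and YFP-negative cardiac populations against endoderm, where the median over all genes tested was 0.628 and 0.487. Between the cardiac populations it was 0.19, below the 0.516 of all genes.

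**Figure D1:**
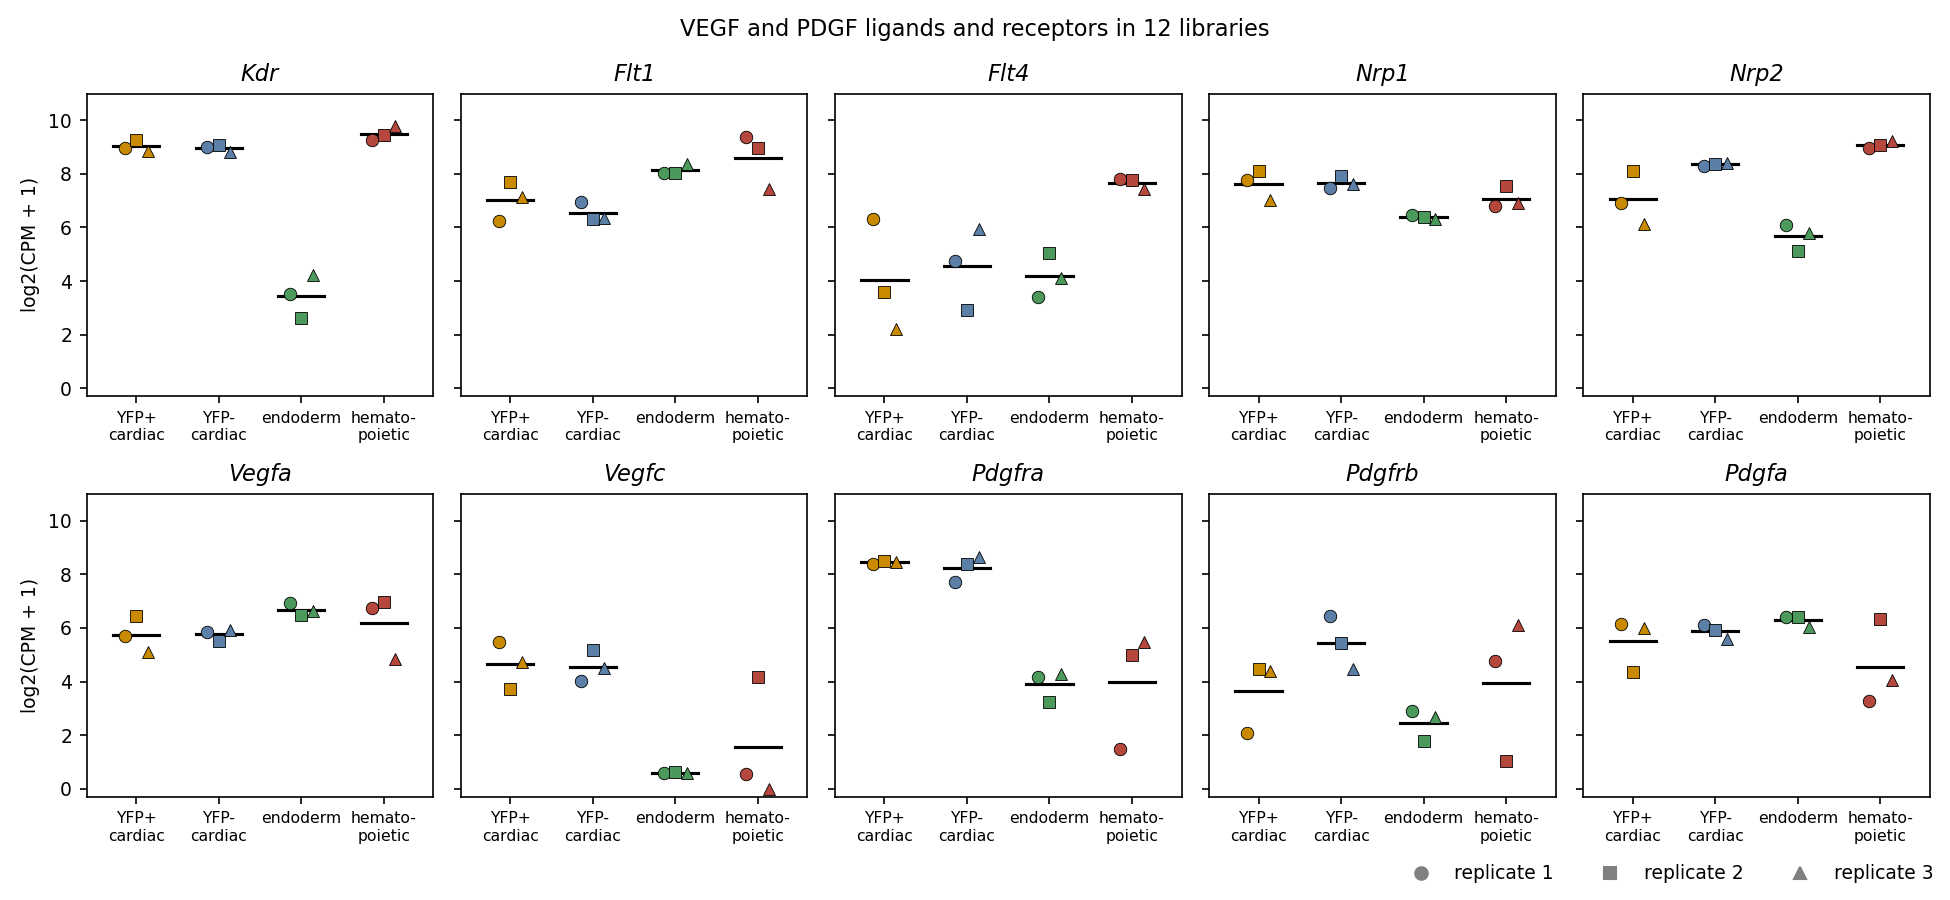
Level of each of the 10 genes on a log2(CPM + 1) scale in the 12 libraries, grouped by population (x axis). Points are libraries, their shapes mark the replicate number, and bars are group means of the 3 log2 values. Kdr was between 5.09 and 17.5 CPM in endoderm and at 454 CPM or more in all mesoderm libraries, Pdgfra was above 200 CPM only in the cardiac libraries, and Flt4 was above 100 CPM only in the hematopoietic libraries.

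Vegfa, the central ligand of blood vessel formation, was present in all 4 populations, where present means at least 10 CPM in each of the 3 libraries. In endoderm it was at 121, 88.7 and 98.9 CPM in replicates 1, 2 and 3. In YFP-positive cardiac mesoderm it was at 50.8, 85.6 and 33.3 CPM, and in YFP-negative cardiac mesoderm at 56.5, 45.0 and 59.2 CPM. All 6 cardiac libraries lay below all 3 endoderm libraries. In hematopoietic mesoderm the values were 105, 124 and 27.4 CPM, so that replicate 1 lay in the endoderm range, replicate 2 above it and replicate 3 below every other library. The log2 difference was -0.73 ± 0.51 (SE, n = 3 per group) for YFP-positive cardiac mesoderm against endoderm and -0.89 ± 0.51 for YFP-negative cardiac mesoderm, and neither passed the edgeR test (adjusted p = 0.58 and 0.69). Endoderm and hematopoietic mesoderm differed by 0.11 ± 0.50, and by -0.30 when hematopoietic replicate 3 was left out. With all 4 populations in the fit, edgeR called no pair for Vegfa. With only the 2 populations in the fit, YFP-negative cardiac mesoderm against endoderm was called (edgeR adjusted p = 0.0426).

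Vegfc, the ligand of FLT4 that is best known from lymphatic vessels, was the most restricted of the 3 ligands. In YFP-positive cardiac mesoderm it was at 44.0, 12.3 and 25.8 CPM, and in YFP-negative cardiac mesoderm at 15.1, 34.7 and 21.7 CPM. Endoderm had 0.502, 0.550 and 0.507 CPM, which are 3, 4 and 4 counts, and was the only case among the 40 combinations of gene and population with all 3 libraries under 1 CPM. Hematopoietic mesoderm was split, with 0.447 CPM (2 counts) in replicate 1, 16.9 CPM (99 counts) in replicate 2 and 0 in replicate 3. The cardiac libraries did not overlap the endoderm libraries, and they overlapped hematopoietic replicate 2. The fitted log2 difference from endoderm was 5.79 ± 1.69 in YFP-positive cells and 5.52 ± 1.67 in YFP-negative cells of the cardiac mesoderm, and it did not pass the edgeR test (adjusted p = 0.104 and 0.144). DESeq2 called both (adjusted p = 0.00067 and 0.00175), and so did limma voom with library quality weights and edgeR on the 2 populations alone. The fitted difference of a gene this low in endoderm depends on the prior count and is no bound.

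Pdgfa, the ligand of PDGFRA, was present in endoderm at 84.7, 84.3 and 65.2 CPM. It was at 70.1, 19.5 and 63.1 CPM in YFP-positive cardiac mesoderm and at 68.6, 59.9 and 46.8 CPM in YFP-negative cardiac mesoderm. The hematopoietic values were 8.72, 80.1 and 15.7 CPM, with replicate 2 at the level of endoderm and the other two below all 6 cardiac libraries. All groups overlapped. No pair was called by edgeR, and the fitted differences ran from -0.48 ± 0.71 to 1.03 ± 0.72. Endoderm held the highest group mean of Vegfa (103 ± 16.7 CPM, SD, n = 3) and of Pdgfa (78.1 ± 11.2 CPM), and the lowest of Vegfc (0.520 ± 0.0266 CPM).

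The receptors gave the clearer pattern. Promoter sequences are shown for Kdr and Flt1, the VEGFA receptors that stood apart in endoderm, where Kdr was the lowest of the 4 populations and Flt1 lay above both cardiac populations. Each runs 5′ to 3′ over the 200 bases from 205 to 6 bases before the RefSeq start (GRCm38.p6), with Kdr at chr5:75978461-75978660 on the minus strand and Flt1 at chr5:147726017-147726216 on the minus strand. Capitals mark every match, on either strand, to 5 motifs. These are the ETS core CCGGAA, the GATA factor motif AGATAA, a TAL1 E-box spelled CAGATG, the hypoxia-inducible factor core ACGTG (HIF core), and the SP/KLF box GGGCGG.
Kdr: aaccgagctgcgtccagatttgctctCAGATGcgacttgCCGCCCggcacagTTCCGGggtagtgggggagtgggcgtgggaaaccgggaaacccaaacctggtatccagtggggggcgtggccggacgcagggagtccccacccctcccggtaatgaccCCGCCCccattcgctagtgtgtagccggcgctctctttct
Flt1: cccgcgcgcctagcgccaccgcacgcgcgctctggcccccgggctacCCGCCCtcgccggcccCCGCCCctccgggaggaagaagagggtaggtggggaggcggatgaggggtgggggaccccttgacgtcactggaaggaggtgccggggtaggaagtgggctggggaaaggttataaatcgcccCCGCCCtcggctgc
The Kdr window held 1 match to the ETS core, 1 to the E-box and 2 to the SP/KLF box, while the Flt1 window held 3 SP/KLF boxes and no match to the other 4 motifs. No 2 of the marked matches overlap. Over 32851 promoter windows of the same length, 10.4% held the ETS core, 11.7% the E-box and 30.5% the SP/KLF box. Among the 11 windows that the table gives for 9 of the 10 genes, 9 held an SP/KLF box, 2 the E-box (Kdr and Pdgfra), 1 the ETS core (Kdr), 1 the GATA motif (a Vegfa window) and 0 the HIF core, which 13.9% of all windows held. The G and C content of these 11 windows was 55.0% to 74.5%, against a median of 53.0% over all windows. A match describes letters in the window and is no evidence of binding.

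Kdr lies on chromosome 5 (75932827 to 75978458, minus strand, GRCm38). It was at 501, 606 and 459 CPM in YFP-positive and at 506, 542 and 454 CPM in YFP-negative cardiac mesoderm. Sorted for its protein, hematopoietic mesoderm had 617, 690 and 880 CPM. Endoderm had 10.5, 5.09 and 17.5 CPM. The cardiac populations overlapped each other fully and lay above every endoderm library and below every hematopoietic library. Against endoderm the log2 difference of YFP-positive cells was 5.69 ± 0.37 and that of YFP-negative cells 5.55 ± 0.37 (edgeR adjusted p = 5.0e-06 and 4.7e-06), and both stayed called in all 13 alternative analyses. Between the cardiac populations it was 0.14 ± 0.30. The order below hematopoietic mesoderm was not called (edgeR adjusted p = 0.365 and 0.279). If cardiac cells were sorted on KDR, these differences from endoderm are set by the gate.

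Flt1, the gene of the high-affinity VEGFA receptor with a soluble form, lies on chromosome 5 (147561604 to 147726011, minus strand). Its order across the populations was not that of Kdr. Endoderm, where Kdr was lowest, had 258, 262 and 328 CPM of Flt1. YFP-positive cardiac mesoderm had 74.3, 204 and 139 CPM and YFP-negative cardiac mesoderm 122, 79.2 and 80.3 CPM. Hematopoietic mesoderm had 672, 503 and 172 CPM. All 6 cardiac libraries lay below all 3 endoderm libraries, and hematopoietic replicate 3 fell among the values between cardiac mesoderm and endoderm, overlapping the YFP-positive group.

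The log2 difference of Flt1 between YFP-negative cardiac and hematopoietic mesoderm was -2.37 ± 0.44 and passed the edgeR test (adjusted p = 0.034). With the replicate number as a block the edgeR adjusted p was 0.0686, and with only the 2 populations in the fit it was 0.159. Leaving out 1 library at a time, the call was kept without hematopoietic replicate 2 (adjusted p = 0.0392) or 3 (-2.74, adjusted p = 0.00245) and lost in the other 4 cases (0.0794 to 0.15). Without hematopoietic replicate 1, which had the most trophoblast markers and the most Flt1 of its group, the difference was -1.93 (edgeR adjusted p = 0.0794). YFP-positive cardiac against hematopoietic mesoderm gave -1.72 ± 0.43 (edgeR adjusted p = 0.0646), and -2.10 with adjusted p = 0.00746 without hematopoietic replicate 3. Against endoderm the cardiac populations differed by -0.89 ± 0.42 and -1.54 ± 0.43 and were not called by edgeR (adjusted p = 0.333 and 0.115). DESeq2 called the second of these (adjusted p = 0.00755) and not the first (0.202).

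Marker levels are given beside the Flt1 values of endoderm. The 10 hematopoietic and endothelial markers summed to 47.2 to 74.5 CPM in the 3 endoderm libraries, against 47.8 to 376 CPM in the cardiac libraries and 1065 to 2148 CPM in hematopoietic mesoderm. Of these 10 markers, 1 was at 10 CPM or more in all 3 endoderm libraries, and 2 had 0 counts in all 3. Among the others, Cdh5, which encodes VE-cadherin, the junction protein of endothelium, was at 0, 0.138 and 0.127 CPM in endoderm. Tal1, a transcription factor of early blood, was at 0.837, 0.688 and 3.30 CPM. Cdh5 and Tal1 are low examples and do not stand for the list, which summed to at least 47.2 CPM in each endoderm library. Visceral endoderm markers summed to 700, 242 and 408 CPM in endoderm replicates 1, 2 and 3. Extraembryonic ectoderm and trophoblast markers summed to 25.8, 12.5 and 82.9 CPM in the same order. The part of any of these marker lists in the Flt1 values was not tested. Among the VEGF receptor family, per kilobase of exon, Flt1 made up 81.3% to 89.2% of the summed level of Kdr, Flt1 and Flt4 in endoderm.

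Flt4, the receptor gene of VEGFC on chromosome 11 (49609263 to 49652739, plus strand), was high and even in hematopoietic mesoderm, at 221, 219 and 171 CPM. In YFP-positive cardiac mesoderm the libraries ran from 3.58 to 77.9 CPM (77.9, 11.2 and 3.58), in YFP-negative cardiac mesoderm from 6.61 to 61.1 CPM (26.1, 6.61 and 61.1), and endoderm had 9.54, 32.1 and 16.5 CPM. The 3 hematopoietic libraries lay above all 9 others, including hematopoietic replicate 3, in which Flt1 and Vegfa were low. The differences from hematopoietic mesoderm were -2.75 ± 0.99, -2.82 ± 0.99 and -3.56 ± 1.02 for the YFP-positive, YFP-negative and endoderm groups. None passed the edgeR test (adjusted p = 0.161, 0.181 and 0.0572), while DESeq2 called all 3 (adjusted p = 0.0199, 0.0219 and 0.00112).

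Per kilobase of exon, the receptor mixture differed between the populations. Kdr made up 78.8% to 82.6% of the 3 VEGF receptors in YFP-positive cardiac libraries and 79.0% to 90.0% in YFP-negative ones. In endoderm the Kdr share was 2.36% to 6.87%. In hematopoietic mesoderm it was 47.1%, 54.5% and 74.4%, with Flt1 at 34.3%, 26.5% and 9.73% and Flt4 at 15.8% to 18.97%. The summed level of the 3 receptors was 131 to 145 RPKM (CPM per kilobase of exon) in hematopoietic mesoderm, 61.6 to 83.6 RPKM in cardiac mesoderm and 21.5 to 28.2 RPKM in endoderm, with no overlap between these ranges. Kdr was the largest part of the sum in every mesoderm library. Its part of these shares and sums is a property of the sort in hematopoietic mesoderm, and may be so in cardiac mesoderm.

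**Figure D2:**
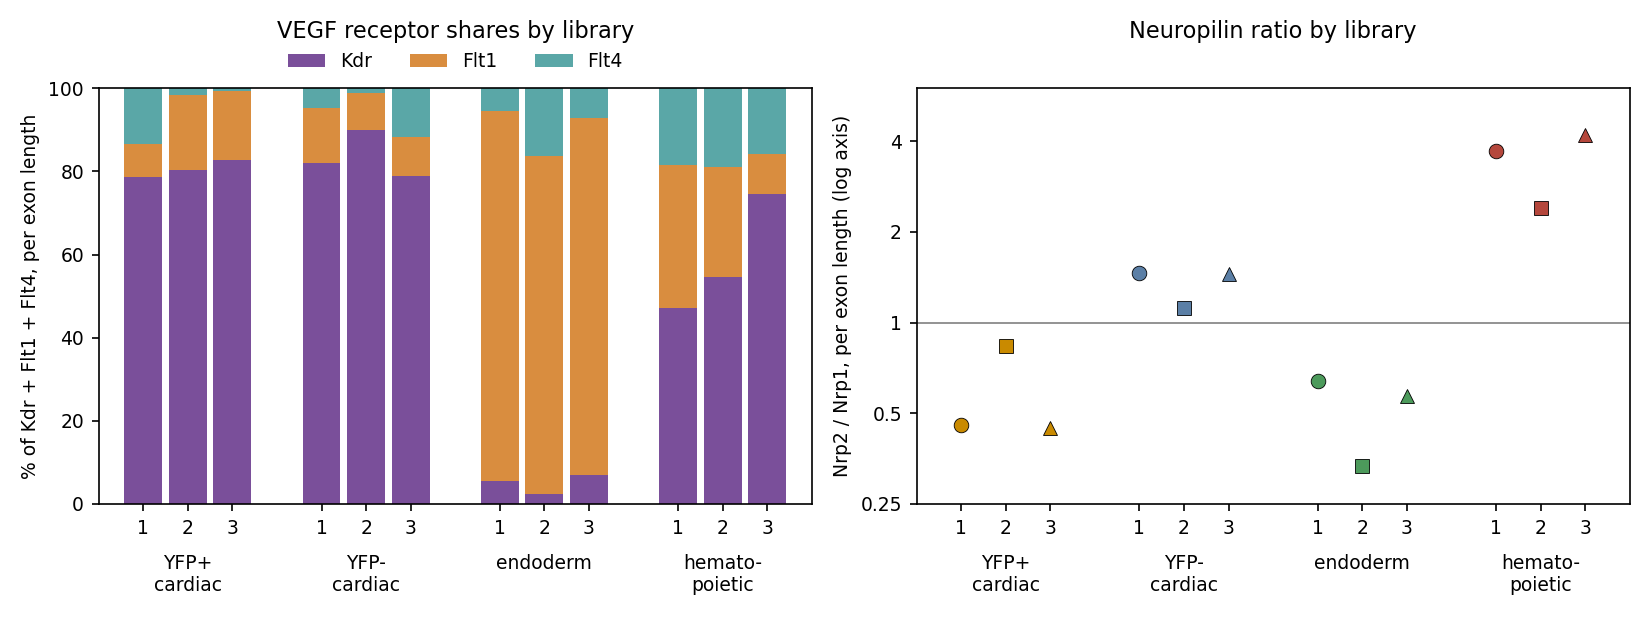
Left, share of Kdr, Flt1 and Flt4 in their summed level per exon length (y axis, percent) in each library, with replicate numbers on the x axis. Right, ratio of Nrp2 to Nrp1 per exon length on a log axis, with a line at equal levels. Kdr made up at least 78.8% in the 6 cardiac libraries and at most 6.87% in the endoderm libraries, and the neuropilin ratio was between 2.39 and 4.21 in hematopoietic mesoderm.

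The co-receptor genes followed separate orders. Nrp1 (chromosome 8, 128358604 to 128503363, plus strand) is best known as the partner of KDR in VEGFA signalling. It was at 216, 272 and 128 CPM in YFP-positive and at 174, 243 and 195 CPM in YFP-negative cardiac mesoderm. Hematopoietic mesoderm had 110, 186 and 118 CPM, overlapping both cardiac groups. Endoderm was the lowest group, at 87.3, 83.8 and 78.8 CPM, and overlapped no other. The difference from endoderm was 1.43 ± 0.30 in YFP-positive cardiac cells (edgeR adjusted p = 0.03), and YFP-negative ones gave 1.35 ± 0.29 (adjusted p = 0.0427). These 2 calls are fragile. Leaving out 1 library at a time, the first was lost in 5 of 6 cases (every library except YFP-positive replicate 3; adjusted p up to 0.183) and the second in all 6 (0.104 to 0.223), while the estimates stayed between 1.18 and 1.68.

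Nrp2 (chromosome 1, 62703285 to 62818695, plus strand), the neuropilin that pairs with FLT4, gave the most graded series of the set. Hematopoietic mesoderm had 493, 539 and 602 CPM. YFP-negative cardiac mesoderm had 310, 328 and 340 CPM, and YFP-positive cardiac mesoderm 120, 276 and 68.9 CPM. Endoderm had 67.4, 34.0 and 54.5 CPM. No 2 neighbours in this order overlapped, although YFP-positive replicate 3 exceeded the highest endoderm library by only 1.4 CPM. In the 3 tight groups the highest library was at most 1.98 times the lowest, against 4.01 times in YFP-positive cardiac mesoderm, where replicate 2, the library with more hematopoietic and endothelial markers, was the highest.

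Of these steps, edgeR called Nrp2 in endoderm against hematopoietic mesoderm (-3.56 ± 0.43, adjusted p = 0.00064), in YFP-negative cardiac mesoderm against endoderm (2.70 ± 0.41, adjusted p = 0.00471) and in YFP-positive cardiac against hematopoietic mesoderm (-1.86 ± 0.40, adjusted p = 0.0392). The first 2 were kept in every alternative run. The third had an edgeR adjusted p of 0.07 with the replicate number as a block and of 0.192 with only the 2 populations in the fit. It was lost in 4 of 6 analyses that left out a library (YFP-positive replicate 1 or 3, hematopoietic replicate 1 or 3; 0.0506 to 0.108), and was -2.56 with adjusted p = 0.00398 without YFP-positive replicate 2. YFP-positive cardiac mesoderm against endoderm gave 1.70 ± 0.40 (edgeR adjusted p = 0.0529). YFP-negative cardiac against hematopoietic mesoderm gave -0.86 ± 0.39 (adjusted p = 0.273).

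Between the 2 cardiac populations Nrp2 was the 1 gene of the set whose libraries did not overlap, and 1 of 10 is near the 11.8% of all genes for which this held. The log2 difference was -1.0006 ± 0.39, lower in the YFP-positive population, and it did not pass the edgeR test (adjusted p = 0.626), nor DESeq2 (0.317). On the 3 dates that the replicate numbers stand for, the differences were -1.36, -0.25 and -2.29 on the log2(CPM + 1) scale. Their common sign follows from the lack of overlap and adds nothing to it. The neuropilin ratio is computed from the same Nrp2 values, so it is no separate evidence of a difference. Per exon length, Nrp2 to Nrp1 was 0.459, 0.837 and 0.446 in YFP-positive and 1.47, 1.12 and 1.45 in YFP-negative cardiac mesoderm, so that each YFP-positive library had more Nrp1 than Nrp2 and each YFP-negative library the reverse. The ratio was 0.335 to 0.638 in endoderm and 2.39 to 4.21 in hematopoietic mesoderm.

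**Figure D3:**
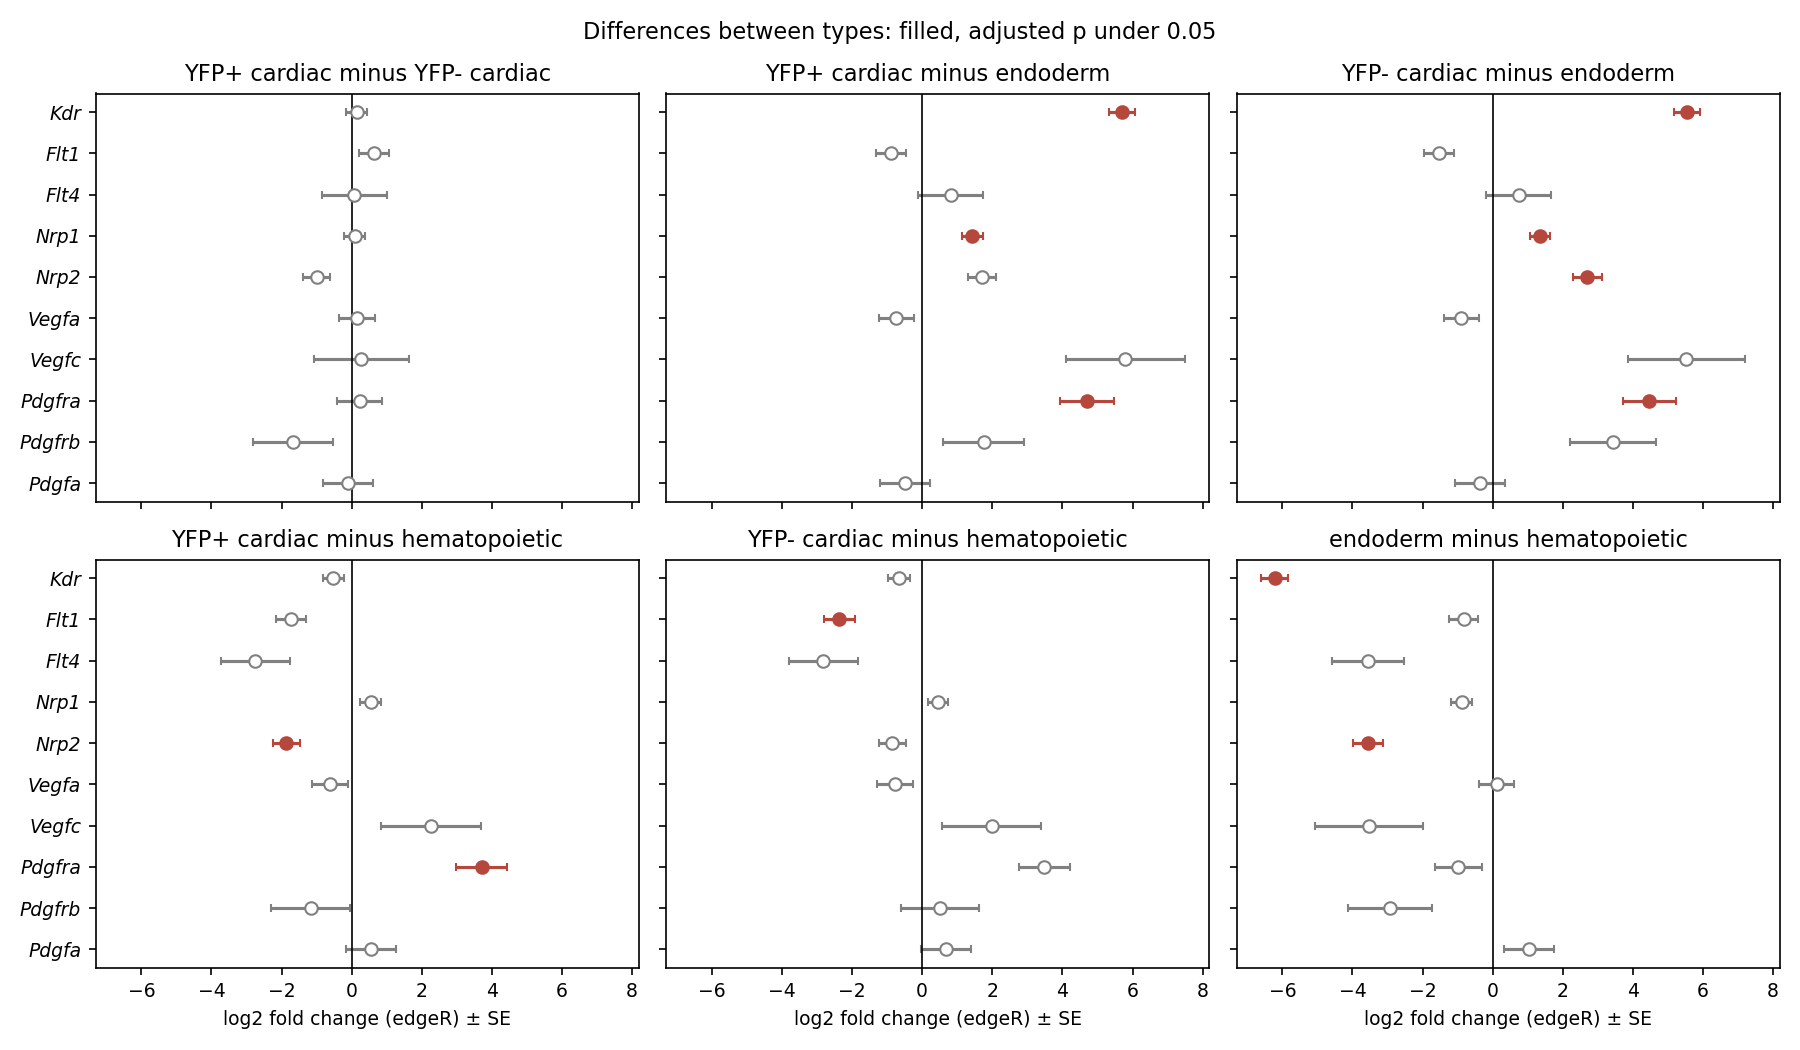
Log2 fold change between populations for the 10 genes from the edgeR fit (x axis), with the standard error as a horizontal bar, for the 6 pairs of populations. Filled points passed an adjusted p of 0.05 over all genes tested. There is no filled point between the cardiac populations, 3 and 4 for the cardiac populations against endoderm, 2 and 1 for them against hematopoietic mesoderm, and 2 for endoderm against hematopoietic mesoderm.

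Pdgfra, the receptor gene that marks early mesoderm and heart precursors, lies on chromosome 5 (75152292 to 75198215, plus strand). Its promoter window is shown for comparison with that of Kdr, since both genes were higher in cardiac mesoderm than in endoderm while only Kdr was at a high level in hematopoietic mesoderm. The hematopoietic Kdr level is a property of the sort, and the cardiac levels of both genes may be so. Whether the motifs bear on these levels was not tested. The Pdgfra window covers chr5:75152046-75152245 on the plus strand of GRCm38.p6 (RefSeq), with the same motifs in capitals and 1 match, to the E-box on the opposite strand.
Pdgfra: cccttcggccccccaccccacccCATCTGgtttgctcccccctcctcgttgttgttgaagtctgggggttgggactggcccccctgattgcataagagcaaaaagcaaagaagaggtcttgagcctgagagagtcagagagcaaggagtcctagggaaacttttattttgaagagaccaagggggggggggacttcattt

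Pdgfra was at 330, 362 and 350 CPM in YFP-positive and at 211, 331 and 397 CPM in YFP-negative cardiac mesoderm. Endoderm had 17.1, 8.53 and 18.4 CPM, and hematopoietic mesoderm 1.79, 31.1 and 44.1 CPM. The cardiac libraries lay above all others, and endoderm and hematopoietic mesoderm overlapped. Within hematopoietic mesoderm, replicate 3, the library with the most cardiac mesoderm markers, was the highest. The difference from endoderm was 4.70 ± 0.76 in YFP-positive cardiac cells (edgeR adjusted p = 0.00711), and YFP-negative ones gave 4.47 ± 0.75 (adjusted p = 0.0097). The first was lost without endoderm replicate 1 (adjusted p = 0.0559), and the second without any 1 of the 3 endoderm libraries (0.0619 to 0.0655). If cardiac cells were sorted on PDGFRA, their Pdgfra differences from the other populations are set by the gate.

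Against hematopoietic mesoderm the YFP-positive population differed in Pdgfra by 3.71 ± 0.73 (edgeR adjusted p = 0.026). This call was lost without YFP-positive replicate 2 or 3 (edgeR adjusted p = 0.0538 and 0.0571). It was also lost in limma voom (adjusted p = 0.141) and with only the 2 populations in the edgeR fit (adjusted p = 0.192). Without hematopoietic replicate 3 the difference was 4.40 (edgeR adjusted p = 0.013). The YFP-negative population differed by 3.49 ± 0.72 (edgeR adjusted p = 0.0514), and by 4.17 with adjusted p = 0.0215 without that library. Limma voom and edgeR on the 2 populations alone did not call it (adjusted p = 0.116 and 0.171). Between the cardiac populations the difference was 0.23 ± 0.65. Exons of Pdgfra overlap antisense genes over 622 bases, and since the strand setting of the counting is not given in the sources used here, reads from the 2 strands cannot be told apart there. The same holds for Pdgfa over 813 bases.

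Pdgfrb, the PDGF receptor gene of vessel-supporting cells, on chromosome 18, was low and uneven. It was at 3.20, 21.3 and 20.03 CPM in YFP-positive and at 87.0, 42.9 and 20.9 CPM in YFP-negative cardiac mesoderm. Hematopoietic mesoderm ran from 1.02 to 67.4 CPM (26.4, 1.02 and 67.4), and endoderm had 6.53, 2.48 and 5.32 CPM. Only YFP-negative cardiac mesoderm had 10 CPM or more in each library. The groups overlapped except YFP-negative cardiac mesoderm with endoderm, where the difference was 3.44 ± 1.23 (edgeR adjusted p = 0.258; DESeq2 adjusted p = 0.0336). Per exon length, Pdgfra made up 90.3% to 98.3% of the 2 PDGF receptors in YFP-positive cardiac libraries. In YFP-negative ones it made up 57.0%, 80.8% and 91.2%.

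**Figure D4:**
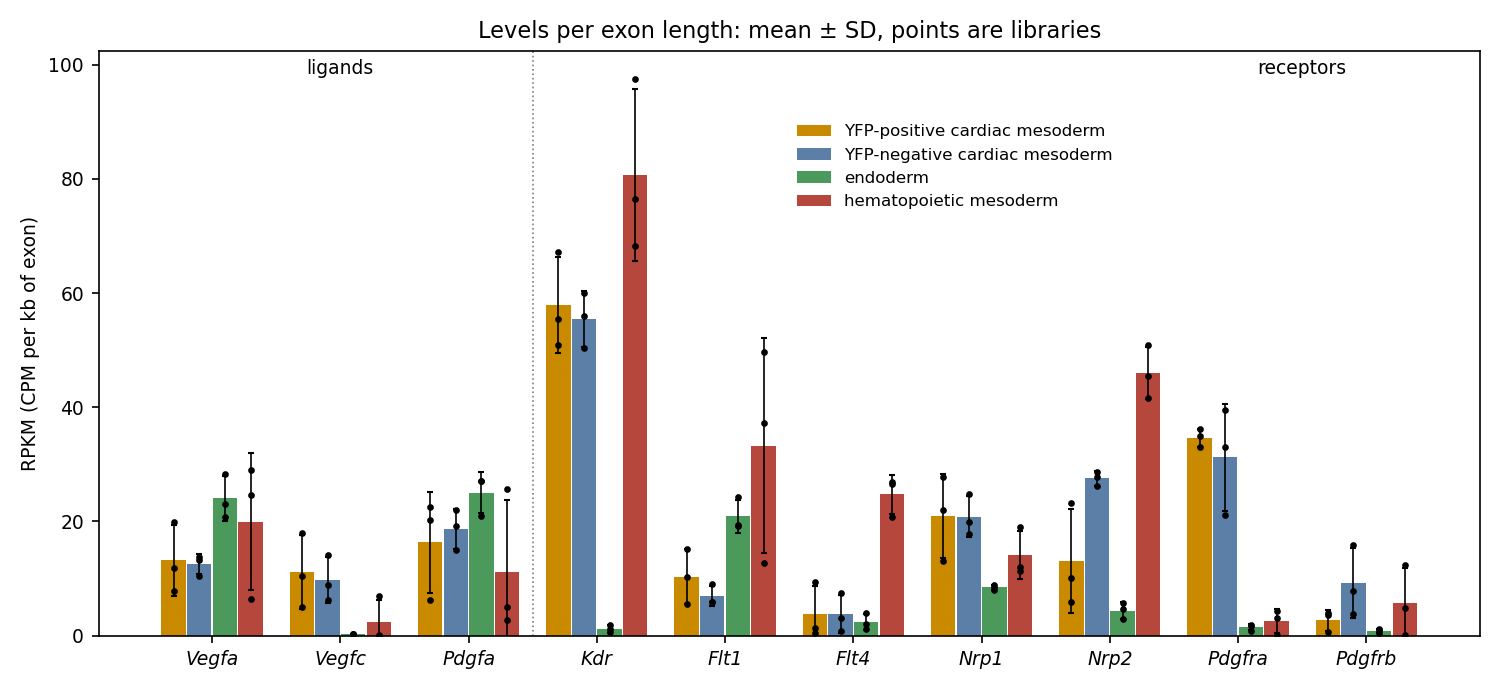
Level per exon length (y axis, RPKM) of the ligands (left of the dotted line) and receptors (right) in each population. Bars are means, error bars the SD over 3 libraries, and points the libraries. Kdr had the highest mean in the 3 mesoderm populations (55.5 to 80.7 RPKM), and Pdgfa, Vegfa and Flt1 the highest in endoderm (25.03, 24.03 and 20.95 RPKM).

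Per exon length, the order of the 10 genes differed between populations. In YFP-positive cardiac mesoderm Kdr came first at 57.8 ± 8.37 RPKM (SD, n = 3) and Pdgfra second at 34.7 ± 1.61, with neither overlapping the gene after it. From Nrp1 in the third place at 20.96 ± 7.43 down to Pdgfrb at 2.71 ± 1.85, every gene overlapped its neighbour. In YFP-negative cardiac mesoderm Kdr (55.5 ± 4.88) and Pdgfra (31.2 ± 9.37) were followed by Nrp2 at 27.5 ± 1.31, which overlapped Pdgfra. Hematopoietic mesoderm began with Kdr (80.7 ± 15.1), Nrp2 (46.0 ± 4.63), Flt1 (33.2 ± 18.8) and Flt4 (24.7 ± 3.48). Endoderm alone began with ligands, Pdgfa at 25.03 ± 3.58 and Vegfa at 24.03 ± 3.89, followed by Flt1 at 20.95 ± 2.89, and these 3 overlapped. After them came a gap to Nrp1 at 8.52 ± 0.436 RPKM.

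Ligands were then set beside their receptors. A gene was counted as present in a population at 10 CPM or more in all 3 libraries. By this rule 28 of the 40 combinations of gene and population were present, 1 was under 1 CPM in all 3 libraries (Vegfc in endoderm) and 11 lay between. For 9 pairings of a ligand and a receptor gene in 4 populations, both genes were present together in 22 of 36 combinations, with 22 to 25 in the alternatives run. The 9 include Pdgfa with Pdgfrb, although PDGFA signals through PDGFRA. That pairing gave 1 of the 22, in YFP-negative cardiac mesoderm, and is not read as a ligand with its receptor. A minimum of 5 CPM in place of 10 gave the 25, and the 3 combinations it added are named with their pairs.

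Vegfa and Flt1, and Vegfa with either neuropilin, were present together in all 4 populations. Vegfa and Kdr were present together in the 3 mesoderm populations, and endoderm had the ligand with Kdr at 5.09 to 17.5 CPM, which counts as present at the 5 CPM minimum. Vegfc and Flt4 were present together in 0 populations. The ligand was present in the 2 cardiac populations and the receptor in hematopoietic mesoderm. At the 5 CPM minimum both were present in YFP-negative cardiac mesoderm. Both genes were at 10 CPM or more in YFP-positive cardiac replicates 1 and 2, YFP-negative cardiac replicates 1 and 3 and hematopoietic replicate 2. The count of 0 therefore depends on the rule that all 3 libraries reach the minimum. With Kdr, its other receptor, Vegfc was present together in both cardiac populations. Pdgfa was present in endoderm and both cardiac populations and Pdgfra only in the latter, while endoderm held Pdgfra at 8.53 to 18.4 CPM, which counts as present at the 5 CPM minimum. Hematopoietic mesoderm was short of both, with Pdgfa at 10 CPM or more in 2 of 3 libraries and Pdgfra in 2 of 3. These counts describe transcripts in sorted cells and say nothing of protein or contact between the populations.

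A wider set of 76 genes that act with these ligands and receptors was examined in 6 lists, of which 71 genes were tested. Between the cardiac populations edgeR called 0 of the 71, with 5 at an unadjusted p under 0.05 (1062 of all 14170 genes), and DESeq2 called 0. In at least 1 pair of populations edgeR called 9. By pair, 3 were higher in each cardiac population than in endoderm (beside 1.54% and 1.31% of all genes called), 3 higher and 1 lower in YFP-positive cardiac than in hematopoietic mesoderm (1.79%), 1 higher in the YFP-negative population than there (0.593%), and 4 higher and 4 lower in endoderm than in hematopoietic mesoderm (5.65%). DESeq2 called 6 and 7 of the 71 in the YFP-positive and YFP-negative cardiac populations against endoderm (6.56% and 4.27% of all genes). It called 9 and 7 in them against hematopoietic mesoderm (10.6% and 7.42%), and 12 in endoderm against hematopoietic mesoderm (13.1%).

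The list of ligand processing and trapping (9 of 10 tested) had 2 genes called, both against endoderm and in all 3 mesoderm populations. They were Pcsk5 and Adamts3, a proprotein convertase and a protease known to process VEGFC. Pcsk5 was at 313, 259 and 196 CPM in YFP-positive cardiac, 216, 177 and 196 CPM in YFP-negative cardiac and 71.5, 72.2 and 173 CPM in hematopoietic mesoderm, against 5.19, 3.17 and 9.13 CPM in endoderm. The differences from endoderm were 5.58 ± 0.50, 5.12 ± 0.49 and 4.36 ± 0.48 in size (edgeR adjusted p = 0.000129, 0.000135 and 0.00036). Adamts3 was at 126, 55.4 and 118 CPM, at 97.3, 89.0 and 59.8 CPM and at 224, 162 and 70.5 CPM in the same order of mesoderm populations. In endoderm it was at 8.37, 12.2 and 8.75 CPM, below every mesoderm library, with edgeR adjusted p = 0.00294, 0.00558 and 0.00082. The call in the YFP-negative population was kept in 4 of 6 analyses that left out a library, and the others in 6 of 6. The median log2 difference of the list was near 0 in both cardiac comparisons (-0.01 and 0.04), as it was over all genes (0.01 and 0.01). Ccbe1, the cofactor of that protease, was at 47.0, 0 and 10.9 CPM in YFP-positive cardiac mesoderm and was not called in any pair.

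Among semaphorin ligands and plexins of neuropilins (10 of 12 tested), 2 plexin genes were called. Plexins are the signalling partners of neuropilins for semaphorins. Plxna2 was at 284 to 480 CPM in the 9 cardiac and endoderm libraries and at 24.8, 86.0 and 121 CPM in hematopoietic mesoderm, the population with the most Nrp2. Its differences from hematopoietic mesoderm were 2.18 ± 0.41, 2.21 ± 0.41 and 2.34 ± 0.41 for the YFP-positive, YFP-negative and endoderm groups (edgeR adjusted p = 0.0216, 0.034 and 0.00771). The first was kept in 5 and the second in 3 of 6 analyses that left out a library. Plxna4 was at 89.3 to 189 CPM in the 6 cardiac libraries, 14.1 to 21.5 CPM in endoderm and 15.7 to 37.9 CPM in hematopoietic mesoderm. It was called against endoderm in both cardiac populations (2.99 ± 0.46 and 2.98 ± 0.46, edgeR adjusted p = 0.00479 and 0.00492). In the YFP-positive population it was also called against hematopoietic mesoderm (2.13 ± 0.44, adjusted p = 0.0358, and 0.0621 with the replicate number as a block), a call kept in 3 of 6 analyses that left out a library.

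Of 27 genes tested for signal transduction below the receptors, 1 was called. Ptprb encodes VE-PTP, an endothelial receptor phosphatase that acts on KDR and on endothelial junctions. It was at 222, 291 and 33.0 CPM in hematopoietic mesoderm and at most 13.1 CPM in the other 9 libraries. It was called against the YFP-positive population (-6.61 ± 1.21, edgeR adjusted p = 0.0177, kept in 3 of 6 analyses that left out a library) and endoderm (-6.99 ± 1.23, adjusted p = 0.00744). As with Flt1 and Vegfa, hematopoietic replicate 3 had the lowest value of its group.

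Heparan sulfate proteoglycans hold VEGF and PDGF at the cell surface and in the matrix, and all 9 of these genes were tested. The glypican Gpc4 was at 330, 284 and 315 CPM in endoderm, 113, 166 and 154 CPM in YFP-positive and 39.4, 38.9 and 16.6 CPM in YFP-negative cardiac mesoderm. Hematopoietic mesoderm had 1.57, 19.3 and 0.383 CPM. The groups did not overlap except for YFP-negative cardiac replicate 3 and hematopoietic replicate 2. Gpc4 was called in endoderm (5.30 ± 0.94, edgeR adjusted p = 0.00783) and in YFP-positive cardiac mesoderm (4.33 ± 0.90, adjusted p = 0.0362, kept in 2 of 6 analyses that left out a library) against hematopoietic mesoderm. Hspg2, which encodes the basement membrane proteoglycan perlecan, was lower in endoderm (129 to 177 CPM) than in hematopoietic mesoderm (513, 542 and 237 CPM) by -1.71 ± 0.28 (edgeR adjusted p = 0.00482).

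Of the 10 genes of oxygen sensing, which controls Vegfa, 1 was called. Hif3a, a member of the hypoxia-inducible factor family, was at 61.9, 97.0 and 96.3 CPM in endoderm and 5.14, 8.02 and 2.49 CPM in hematopoietic mesoderm, a difference of 3.87 ± 0.77 (edgeR adjusted p = 0.0145, kept in 4 of 6 analyses that left out a library). Hif1a, the main inducer of Vegfa, was at 236 to 352 CPM in all 12 libraries and was not called in any pair.

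The remaining ligands and family members were sparse. Pgf, which encodes the FLT1 ligand PlGF, had 0 counts in all 12 libraries. Pdgfb was at 86.9 CPM in YFP-positive cardiac replicate 1 and at 22.6 and 49.3 CPM in hematopoietic replicates 1 and 2, and at most 2.78 CPM in the other 9. Vegfb, a FLT1 ligand, was at 25.05 to 80.4 CPM in 11 libraries and at 11.7 CPM in hematopoietic replicate 3. Pdgfrl was called in endoderm (11.4, 12.4 and 4.18 CPM) against hematopoietic mesoderm, where it had 0 counts in each library. It was at least 15.9-fold higher in endoderm, taking 3 counts per library as the floor. Its edgeR adjusted p was 0.0368, 0.0771 with the replicate number as a block, and the call was lost in all 6 analyses that left out a library.

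**Figure D5:**
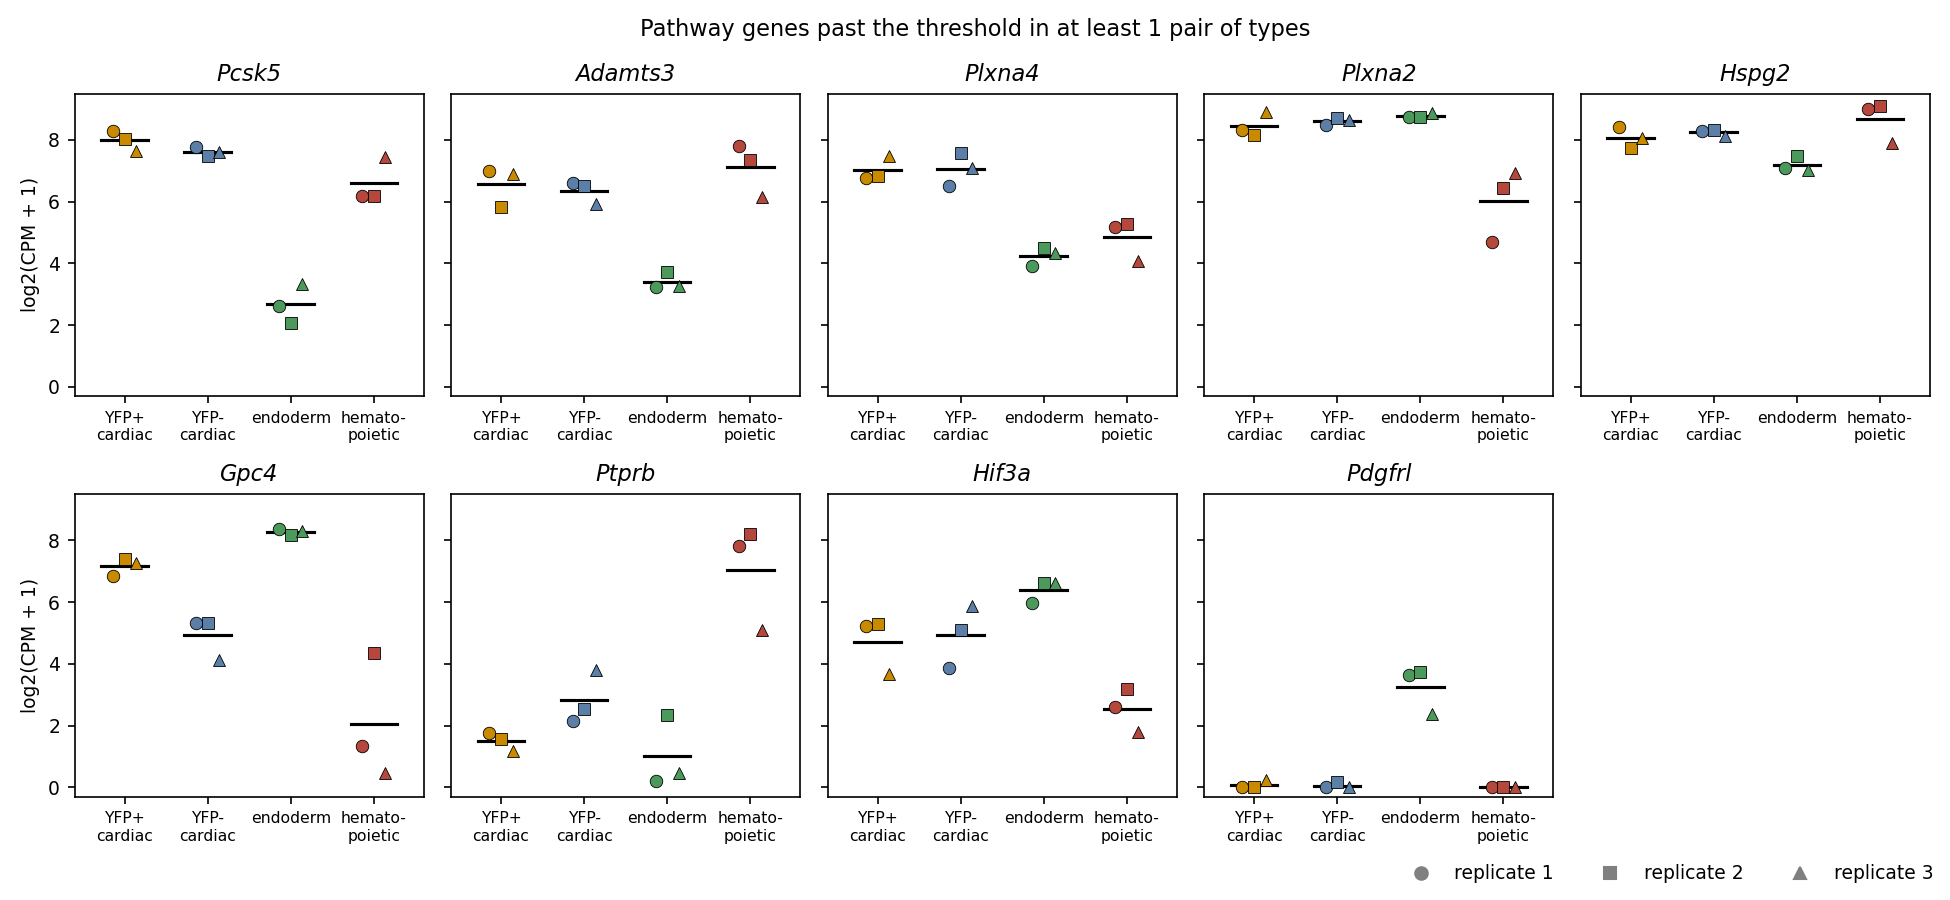
Level on a log2(CPM + 1) scale in each library of the 9 pathway genes that passed the threshold in at least 1 pair of populations. Points are libraries, shapes mark the replicate number, and bars are means. Pcsk5 and Adamts3 were lowest in endoderm, Plxna2 and Gpc4 lowest in hematopoietic mesoderm, and Ptprb highest in hematopoietic mesoderm, where replicate 3 was the lowest library of its group.

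The genes most like each member over the 12 libraries were listed by Pearson's r of log2(CPM + 1) among 9028 genes with a mean of at least 10 CPM. This is a description, since the 12 libraries fall into 4 populations and share depth and preparation. Kdr was most like Unc5c (r = 0.973), a netrin receptor gene, and Ece1 (0.971), which encodes endothelin-converting enzyme. Vegfc was most like Hand2 (0.958), a heart and limb transcription factor, and the protocadherin gene Pcdh17 (0.948). Fbln2 (0.960) was among the genes most like Pdgfra, Pdgfa was most like Timp3 (0.984) and Gins1 (0.956), and Flt1 most like Slc39a8 (0.925) and Fam210b (0.920). For Nrp2 these were Frmd6 (0.932) and Sept2 (0.930), for Nrp1 Fscn1 (0.921) and Syde1 (0.917), for Vegfa Palld (0.911) and Macf1 (0.900), and for Flt4 Rad23b (0.908) and Snrnp200 (0.890). Pdgfrb had the weakest likeness, to Sephs1 (0.847) and Cnn3 (0.826). Within the set, Pdgfra was negatively correlated with Flt1 (r = -0.85) and positively with Vegfc (r = 0.84).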

How the data were processed

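The authors deposited raw read counts per gene for 12 libraries, as whole numbers, with 5 summary rows per library that were left out here and that take 78.5% to 81.7% of tallied reads. The submitters' processing notes name STAR 2.5.0a, Picard, HTSeq 0.6.0, DESeq2 and the mm10 build, with no role or order. The annotation release and the strand setting are not given in the sources used here. Samples were grouped by their titles. Symbols were matched for 37607 of the 38924 identifiers, and positions and exon lengths come from GENCODE M21 (GRCm38), matched by identifier without version. CPM is a gene's count scaled to the library's total over genes, and RPKM is CPM per kilobase of merged exons.

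Tests used edgeR 4.0.16 in R 4.3.3, with TMM scaling, the default expression filter and 1 coefficient per population over all 12 libraries (8 residual degrees of freedom). All tests were two-sided, with Benjamini-Hochberg adjustment over the 14170 genes of a pair. SE is the log2 fold change divided by the square root of F. The alternatives were RLE scaling, a fit with replicate number as a block, DESeq2 1.42.0, no filter or one on means under 5 CPM, only the 2 populations compared, limma 3.58.1 voom with quality weights, and leaving out each library in turn. Each procedure was tested on simulated data.

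Each replicate number goes with 1 date in the deposited files across the 4 populations, and what was done on that date is not stated. Same-numbered libraries did not deviate together, with correlations of -0.02 to 0.03 over 18 pairs of libraries, of which 0 were above 0.1. Members, lists and tests were chosen with earlier results of these data known. The text names all 10 genes, the called genes of each list (at most 3 per direction by size), and the 2 genes most like each member, of which 1 is not reported here. Other genes named, such as Ccbe1, Hif1a, Pgf, Pdgfb and Vegfb, were chosen after their values were seen. The count floors cover counting error only, since PCR copies cannot be told from separate molecules here.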

Additional observations from a re-analysis of the deposited data

How the results depend on the processing

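Depth limits the low genes, since 3 counts are up to 0.671 CPM, and so does the spread between libraries, with a biological coefficient of variation of 0.394 in endoderm, 0.749 in YFP-negative cardiac, 1.00 in YFP-positive cardiac and 1.15 in hematopoietic mesoderm. Of 779 values recomputed for the 10 genes in 6 pairs, 685 kept their direction and side of the threshold, 32 lost and 41 gained a call, and 21 changed sign, 0 of them among the 12 called results. Of 72 values that left out 1 library from a called result, 25 lost the call. The cause of the changes below was not tested, except that leaving out a library also removes a sample.

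The count of the 10 genes called changed as follows. For YFP-positive cardiac mesoderm against endoderm (3) it was 5 in DESeq2, 5 in voom, 4 with only the 2 populations, without the filter or with the 5 CPM minimum, and 1 to 4 without 1 library. The calls over all genes (218) were 929, 1130, 1063, 272, 263 and 71 to 159. For YFP-negative cardiac mesoderm against endoderm (4) it was 7 in DESeq2, 8 with only the 2 populations, 7 in voom, 3 with RLE scaling, 5 without the filter and 2 to 3 without 1 library. The calls over all genes (185) were 605, 1360, 1812, 180, 253 and 69 to 100. For YFP-positive cardiac against hematopoietic mesoderm (2) it was 1 with the replicate block, 4 in DESeq2, 0 with only the 2 populations, 1 in voom, 3 without the filter or with the 5 CPM minimum, and 0 to 3 without 1 library. The calls over all genes (253) were 133, 1498, 13, 18, 308, 317 and 106 to 426. For YFP-negative cardiac against hematopoietic mesoderm (1) it was 2 without the filter, 2 with the 5 CPM minimum, 0 with the replicate block, 3 in DESeq2, 0 with only the 2 populations, 2 in voom and 0 to 2 without 1 library. The calls over all genes (84) were 174, 133, 31, 1052, 10, 95 and 16 to 247. For endoderm against hematopoietic mesoderm (2) it was 4 in DESeq2, 3 in voom, with only the 2 populations or without the filter, and 2 to 3 without 1 library. The calls over all genes (800) were 1861, 1225, 1258, 675 and 180 to 976. For any difference among the populations (5) it was 7 in DESeq2, 6 in voom or without the filter, 4 with the replicate block and 3 to 6 without 1 library. The calls over all genes (854) were 1914, 1097, 1255, 467 and 212 to 991. Other settings gave the main count of the 10 genes.

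The replicate block ended the calls of Nrp2 in YFP-positive cardiac against hematopoietic mesoderm, of Flt1 in YFP-negative cardiac against hematopoietic mesoderm, and of Flt1 over the 4 populations (edgeR adjusted p = 0.0522), and changed no other call among the 10 genes. Over all genes, the calls ranged over the alternatives from 71 to 1130 (main value 218) and 69 to 1812 (185) for the YFP-positive and YFP-negative cardiac populations against endoderm, 13 to 1498 (253) and 10 to 1052 (84) for them against hematopoietic mesoderm, 180 to 1861 (800) for endoderm against hematopoietic mesoderm, 0 to 112 (0) between the cardiac populations and 212 to 1914 (854) for any difference.

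Signs changed for these log2 differences. Between the cardiac populations Flt4 (0.07) was -0.21 with the replicate block, -0.80 in voom and -2.00 to 0.98 without 1 library. Without 1 library, the differences between the cardiac populations were -0.17 to 0.33 for Nrp1, -0.26 to 0.43 for Vegfa, -0.26 to 0.66 for Vegfc, -0.0099 to 0.41 for Pdgfra and -0.42 to 0.28 for Pdgfa. Flt4 in YFP-positive cardiac mesoderm against endoderm (0.81) was -0.31 in voom and -1.26 to 1.34 without 1 library, and in the YFP-negative population -0.22 to 1.29. Pdgfrb in YFP-positive cardiac against hematopoietic mesoderm (-1.17) was 0.97 in voom and -1.74 to 0.069 without 1 library, and in the YFP-negative population -0.12 to 1.75. In endoderm against hematopoietic mesoderm Vegfa was -0.30 to 0.44 and Vegfc -4.12 to 1.01. Vegfc did not pass the filter in the fit of those 2 populations alone, which gave no value.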
